A study of Caenorhabditis elegans with 2 samples.

Results

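The strongest binding sites of HLH-8 inside introns were examined in whole late embryos of Caenorhabditis elegans. HLH-8 is the nematode member of the Twist family of transcription factors. Such factors carry a basic helix-loop-helix domain, bind DNA as dimers, and recognise the E-box, a short palindromic word written CANNTG. HLH-8 is known as a regulator of the mesoblast lineage, of the sex muscles and of enteric muscles, and it pairs with the broadly present factor HLH-2 or with itself. Introns of nematode genes are mostly short, while long introns, often the first of a gene, are known places of enhancers.

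The material was 1 group of 2 biological replicates of hermaphrodites of strain OP63, taken 3.5 hours after the eggs were synchronized by bleaching. Both replicates express HLH-8 with a GFP-FLAG tag at its C-terminus from a stably transmitted transgene, and the labels do not name its promoter. By the deposited description, chromatin was precipitated through the GFP, while the antibody field of the labels names hlh-8. Chromatin immunoprecipitation sequencing (ChIP-seq) gave lists of candidate peaks. A peak has a summit, its point of highest enrichment, and a signal, the peak caller's own enrichment value in arbitrary units. Neither a strain without the tag nor input chromatin was analysed here. The chromatin came from all cells of the embryo, so few cells with strong binding and many cells with weak binding cannot be told apart.

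The intronic sites were chosen by their measured signal and their place. They are the peaks of the list pooled over both replicates with a signal of 40 or more and a summit in an intron of a protein-coding gene and in no exon. The summit also had to lie outside the window from 500 bp upstream to 200 bp downstream of any protein-coding 5′ end, and over 200 bp from tRNA and snoRNA genes. This gave 269 sites of 25904 pooled candidates. They made up 12.3% of the 2181 candidates with a signal of 40 or more, which were 8.42% of all candidates. At the same level there were 904 promoter peaks, 572 intergenic peaks, 218 peaks at tRNA or snoRNA genes and 195 peaks in exons. Of the 6420 candidates that met the rule on place, 4.19% reached 40, and the 6151 others, with a median signal of 16.1, are called weaker intronic candidates here. The pooled list was deposited as peaks together with background. The weaker candidates can therefore be background, and comparisons with them are not comparisons of strong with weak binding. Signals chose the sites, so signals are given as a description, without a test.

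The members nearest to the threshold had a pooled signal of 40.4 in the intron of sos-1, 40.4 in gcy-28, 40.3 in Y56A3A.7, 40.1 in abts-4 and 40.1 in mbk-2. Just outside it were candidates in zmp-4 (39.97), myrf-1 (39.9), dnj-24 (39.8), cam-1 (39.7) and ptp-1 (39.6). The values run on across the threshold without a gap.

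The sequences that carry the E-box finding are those with E-boxes next to the summit. The following windows of 101 bases, centred on the summit, show how these boxes lie there. The classes shown, called core E-boxes here, are CAGATG with the related CACATG and the class CATATG. They are the plus strand of ce11 from the RefSeq assembly, 5′ to 3′, and capitals mark the core E-boxes on either strand (CATCTG is CAGATG, and CATGTG is CACATG, on the other strand). The windows lie at chrX:17062395-17062495 in C30G4.4, chrV:11528779-11528879 in ccch-1, chrIII:2127930-2128030 in frl-1, chrX:1086553-1086653 in rei-2 and chrX:7884862-7884962 in pcyt-2.2. The others lie at chrII:6935903-6936003 in flcn-1, chrX:6915428-6915528 in nhx-4, chrIV:2284766-2284866 in lin-1 and chrIII:9483939-9484039 in bre-3. The bre-3 window has 1 such E-box, and the others have 2. A single box was the commoner case among the 88 sites (32.7%) with any core E-box. Most of the 269 sites had none.
C30G4.4: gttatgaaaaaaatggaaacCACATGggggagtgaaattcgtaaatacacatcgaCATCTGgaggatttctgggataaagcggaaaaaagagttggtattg
ccch-1: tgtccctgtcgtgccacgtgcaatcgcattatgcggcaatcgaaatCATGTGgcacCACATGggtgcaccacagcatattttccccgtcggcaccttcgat
frl-1: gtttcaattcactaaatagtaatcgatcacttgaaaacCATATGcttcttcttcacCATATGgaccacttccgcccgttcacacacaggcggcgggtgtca
rei-2: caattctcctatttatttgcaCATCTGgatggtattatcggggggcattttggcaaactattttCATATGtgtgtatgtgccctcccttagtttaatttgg
pcyt-2.2: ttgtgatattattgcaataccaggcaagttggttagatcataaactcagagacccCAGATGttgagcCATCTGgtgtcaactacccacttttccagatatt
flcn-1: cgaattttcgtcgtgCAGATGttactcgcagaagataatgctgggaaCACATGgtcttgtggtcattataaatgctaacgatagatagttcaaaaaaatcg
nhx-4: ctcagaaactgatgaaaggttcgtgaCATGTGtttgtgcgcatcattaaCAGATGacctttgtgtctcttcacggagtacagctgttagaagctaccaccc
lin-1: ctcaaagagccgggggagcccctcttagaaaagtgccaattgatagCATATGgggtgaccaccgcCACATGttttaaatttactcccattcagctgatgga
bre-3: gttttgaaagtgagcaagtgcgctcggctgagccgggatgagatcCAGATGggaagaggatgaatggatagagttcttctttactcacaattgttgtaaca

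In ccch-1, which encodes a CCCH-type zinc finger protein, 2 copies of CACATG started 4 bases before and 6 bases after the summit. In frl-1, a formin-related gene, 2 copies of CATATG started 12 bases before and 6 bases after it. In pcyt-2.2, for an enzyme of phosphatidylethanolamine synthesis, 2 copies of CAGATG started 5 and 17 bases after it. The other windows mix classes, as in rei-2, where CAGATG started 29 bases before and CATATG 14 bases after the summit. In bre-3, whose product is a glycosyltransferase, the single CAGATG started 5 bases before it. The windows other than that of bre-3 belong to the 22 sites (8.18%) that held at least 2 core E-boxes within 50 bp of the summit, against 0.797% of the weaker intronic candidates. The strongest of these printed sites, in C30G4.4, had a pooled signal of 106.4, with 48.4 in replicate 1 and 56.7 in replicate 2. Next came ccch-1 at 99.2, with 47.7 in replicate 1 and 52.6 in replicate 2, then rei-2 (70.2) and frl-1 (66.2). Others of the kind were zig-1, an immunoglobulin domain gene, at a pooled 86.9 with 43.0 in replicate 1 and 41.6 in replicate 2, C32E12.4 (71.9) and picc-1 (67.3). The difference in the share of such sites was not tested.

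Most of the 20 strongest sites had no such E-box, among them the strongest of all, in M01F1.8 and hlh-8. Windows of some of these sites are shown here. The windows lie at chrIII:3499990-3500090 in M01F1.8, chrIII:11093635-11093735 in hmt-1, chrX:8117977-8118077 in hlh-8 and chrIII:8802043-8802143 in zfp-1, again on the plus strand of ce11. Capitals here mark the arms of the longest perfect inverted repeat in M01F1.8, and both copies of the longest perfect direct repeat in hmt-1. The windows of hlh-8 and zfp-1 are in lower case throughout.
M01F1.8: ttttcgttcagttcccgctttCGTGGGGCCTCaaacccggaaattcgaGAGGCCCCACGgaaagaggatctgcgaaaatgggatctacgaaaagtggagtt
hmt-1: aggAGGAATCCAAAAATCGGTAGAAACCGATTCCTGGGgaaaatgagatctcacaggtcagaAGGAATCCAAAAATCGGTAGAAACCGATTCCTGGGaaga
hlh-8: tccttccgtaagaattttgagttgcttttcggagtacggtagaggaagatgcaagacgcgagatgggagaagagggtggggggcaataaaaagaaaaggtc
zfp-1: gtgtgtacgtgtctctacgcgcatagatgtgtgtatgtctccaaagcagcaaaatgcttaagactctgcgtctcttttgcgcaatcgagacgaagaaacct

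The arms were 11 bases long and 16 bases apart at M01F1.8. The site in Y39A1C.1 had arms of 14 bases, 38 bases apart. In hmt-1 a unit of 35 bases had 2 copies, with starts 59 bases apart. Inverted repeats with arms of at least 10 bases were in 3 of the 20 strongest windows (15%), but over all 269 sites they were in 7 (2.60%). That compares with 1.55% of promoter peaks, 4.62% of weaker intronic candidates and 4.09% of flanking windows. Direct repeats with a unit of at least 14 bases were in 8 sites (2.97%), in 3.17% of the weaker candidates and in 1.12% of the flanks. The repeats were looked for after the sequences had been read, and no test was made.

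The pooled signals of the 269 sites ran from 40.1 to 535.7 with a median of 53.2. A signal of at least 60 was reached by 94 sites, of at least 100 by 22 and of at least 200 by 3. The strongest site, at chrIII:3499844-3500271 in an intron of M01F1.8, had a pooled signal of 535.7, with 255.5 in replicate 1 and 278.9 in replicate 2. RefSeq calls the product of that gene a lipoprotein. The next, at chrX:8117832-8118235 in the first intron of hlh-8 itself, had a pooled signal of 271.8, with 135.9 in replicate 1 and 137.6 in replicate 2. The site in M01F1.8 stood apart from the rest in both replicates, while the values at hlh-8 lay near those of the next site.

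A further summit in the same hlh-8 intron, 200 bp away in the same overlapping region, had a pooled signal of 78.9, with 94.1 in replicate 1 and 27.2 in replicate 2. None of the 10 classes of E-box lay within 50 bp of either hlh-8 summit. The strain carries a transgene with hlh-8, and reads from added copies of this intron cannot be told apart from reads of the gene's own locus. An annotated noncoding RNA gene also lay within 200 bp of the stronger summit.

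The site ranked next had a pooled signal of 245.4, with 112.9 in replicate 1 and 134 in replicate 2, and lay in ndx-8, which encodes a peroxisomal coenzyme A diphosphatase. Its window held 2 copies of CAGATG and 1 of CACATG. In dip-2, named by RefSeq for a DMAP1-binding domain, the pooled signal was 176.6, with 81.4 in replicate 1 and 92.2 in replicate 2, and 2 copies of CAGATG were present. The FERM domain gene frm-4 had 151.6 and likewise 2 copies of CAGATG. The other sites among the 20 strongest were in W05H12.1 (161.3), inso-1 (138.3), eif-3.I (134.3), Y39A1C.1 (132.5), Y56A3A.7 (131.4), dhc-4 (129.5), let-526 (128.1), C48E7.6 (127.1), rgs-4 (112.4), bre-3 (111.1), miz-1 (109.8), zfp-1 (107.6), hmt-1 (106.8), C30G4.4 (106.4) and pbrm-1 (104.7), as pooled signals.

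Of these hosts, let-526 encodes an ARID domain subunit of a SWI/SNF-type remodelling complex, pbrm-1 the polybromo subunit of such a complex, and zfp-1 a protein related to human AF10. Others encode the translation initiation factor subunit EIF-3.I, the regulator of G protein signalling RGS-4 and a dynein heavy chain, DHC-4. The dhc-4 site had a signal of 46.01 in replicate 1 and 86.1 in replicate 2, and an snRNA gene lay within 200 bp of it. Its part in the result was not tested. An snRNA gene lay within that distance of 3 of the 269 sites (1.12%), against 0.0813% of the weaker candidates.

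Both replicates held a candidate within 200 bp of 264 of the 269 sites (98.1%). In these, the signal in replicate 1 ran from 8.18 to 255.5 with a median of 25.6, and in replicate 2 from 8.24 to 278.9 with a median of 29.2. Replicate 2 was the higher at 165 sites, and the median log2 difference, replicate 2 minus replicate 1, was 0.18 (SD over sites 0.72). Signals differed by over 2-fold at 45 sites (17.05%), of which 33 were higher in replicate 2. That share was 12.1% of promoter peaks and 13.7% of intergenic peaks. Across sites, signals of the replicates had a Spearman correlation of 0.309 over 264 sites. All points share the same 2 libraries and the selection on pooled signal, so this value is a description.

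At 8 sites, 1 candidate of a replicate was the match of a pair of neighbouring summits, so its signal stands for both, and 5 of these sites are among the 45. Of the 256 sites whose candidates in both replicates were matched to no other site, 40 (15.6%) differed by over 2-fold. The largest ratios among those 256 were at nhr-19, with 9.45 in replicate 1 and 39.0 in replicate 2, and at lin-1, with 8.18 in replicate 1 and 33.4 in replicate 2. The lin-17 site, with 49.4 in replicate 1 and 14.1 in replicate 2, was uneven the other way. Sites without a partner in one of the replicates lay in lsy-22 (2 sites), Y67D8A.2, madd-3 and mig-10. The authors' optimal list, the peaks that passed their test of reproducibility, held 38.7% of the 269 sites, 54.65% of the promoter peaks and 47.03% of the intergenic peaks with a signal of 40 or more. No test of that difference was made. Among the 269 sites the optimal list held those with pooled signals down to 57.7 (lit-1) and none from 57.1 (flcn-1) downward. It held an lsy-22 site without a candidate in replicate 2. Median pooled signals were 53.2 at the sites, 60.1 at promoter peaks and 55.75 at intergenic peaks. These shares therefore follow pooled signal and do not compare how well the groups repeat.

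**Figure D1:**
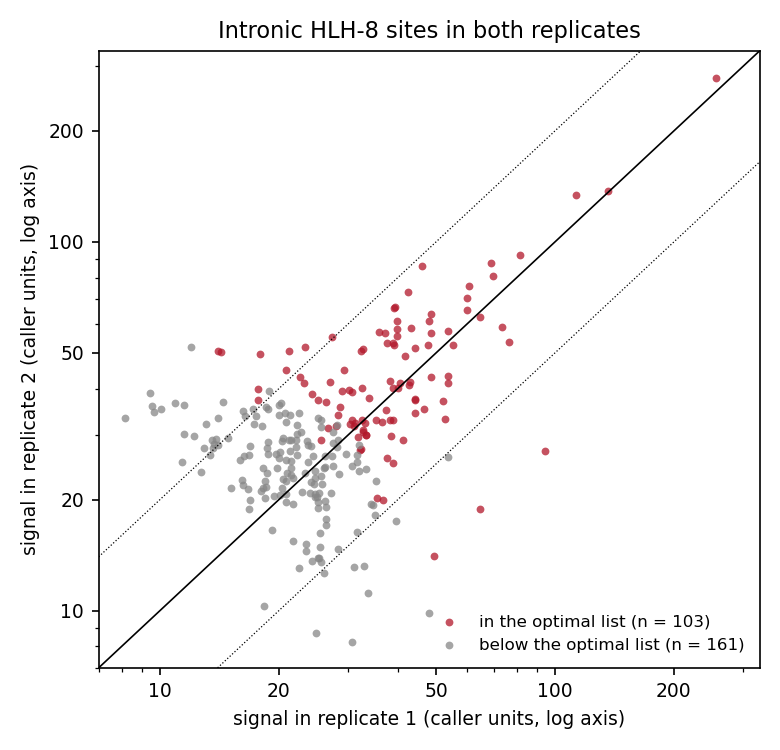
Signal of each intronic site in replicate 1 (x axis) and replicate 2 (y axis), in the caller's units on log axes, for the 264 sites with a candidate in both replicates. The solid line marks equal signals and the dotted lines a 2-fold difference, beyond which 45 sites lie; red points are in the optimal list, grey points are not.

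The E-boxes CAGATG and CACATG were concentrated at intronic summits. CAGATG lay within 50 bp of 51 of the 269 summits (18.96%, exact 95% interval 14.5 to 24.2%), against 4.46% of windows of the same size centred 500 bp to either side. CACATG lay there at 35 summits (13.0%, 9.23 to 17.6%), against 2.97% of the flanks. In exact McNemar tests of the summit against each flank, with the larger p of the pair adjusted over 10 E-box classes by Benjamini-Hochberg, p was 3.31e-05 for CAGATG and 0.00021 for CACATG. The class CATATG, which is the E-box known from promoters of HLH-8 targets, was at 14 summits (5.204%) against 1.86% of the flanks and did not pass (exact adjusted p = 0.212). The other 7 classes did not pass either. These comparisons with flanks were not adjusted for GC content. Sites of the same gene or region are not independent, and intervals over sites cover counting error only.

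These shares kept their direction in every alternative tried. The ratio of summits to flanks for CAGATG was 4.25, but 16.0 for sites in the optimal list, 6.80 against flanks at 300 bp and 6.53 without replicate 2. For CACATG the ratio was 4.38, and it was 2.77 without replicate 2 and 3.50, past the threshold no longer (exact adjusted p = 0.0627), where both flanks had to be intron.

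Against promoter peaks with a signal of 40 or more, CAGATG was the more frequent at intronic sites. The median signal was 53.2 at intronic sites and 60.1 at these promoter peaks, so the groups share the threshold but were not matched in strength. It was at 18.96% of intronic sites and 8.96% of promoter peaks (odds ratio 2.38, 95% interval 1.59 to 3.53, two-sided Fisher's exact test, adjusted p = 0.000149). CACATG was at 13.0% of intronic sites and 8.30% of promoter peaks (odds ratio 1.65, exact adjusted p = 0.0784), and CATATG at 5.204% of intronic sites and 2.10% of promoter peaks (odds ratio 2.56, exact adjusted p = 0.0545). Neither passed the threshold of 0.05, and the call of each turned with the settings: without replicate 2 the CACATG odds ratio was 1.93 and passed.

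No difference from intergenic peaks was detected. CAGATG was at 18.96% of intronic sites and 20.3% of intergenic peaks, with an odds ratio of 0.92 (95% interval 0.62 to 1.34, exact adjusted p = 1). Any core E-box was found at 88 intronic sites (32.7%, 27.1 to 38.7%), 34.97% of intergenic peaks, 18.1% of promoter peaks, 9.19% of weaker intronic candidates and 9.11% of flanks. Over 215310 windows of the same length tiled through all eligible intron it was 6.31%.

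Within introns, 5 of the 10 E-box classes were more frequent at the sites than at weaker candidates, and the other 5 did not pass. CAGATG was at 18.96% of intronic sites and 4.06% of weaker candidates (odds ratio 5.52, Fisher's exact test, adjusted p = 1.28e-17). CACATG was at 13.0% of sites and 3.58% of weaker candidates (odds ratio 4.03, exact adjusted p = 1.42e-09), and CATATG at 5.204% of sites and 1.95% of weaker candidates (odds ratio 2.76, exact adjusted p = 0.00342). Within strata set by quantiles of GC content the odds ratio was 4.48 for CAGATG, 2.93 for CACATG and 2.64 for CATATG, and all 3 passed. GC content can still differ inside a stratum. CAGCTG (odds ratio 3.13, exact adjusted p = 0.000643) and CAAGTG (1.91, 0.0347) also passed, but not in every setting. CAGCTG was lost without replicate 2 (1.57) and within the optimal list (1.47). CAAGTG was lost in GC strata (1.68, exact adjusted p = 0.106), without replicate 1 (1.43), without replicate 2 (1.68) and in further settings.

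Among the 269 sites themselves the share with a core E-box did not climb with signal. It was 31.3% in the 67 strongest sites, 43.3% in the next 67, 32.8% in the 67 after those and 23.5% in the 68 weakest. Of the occurrences within 50 bp of the summit, 71 (63.4%) had their centre within 25 bp of it, and the median distance of the centre was 19.5 bp. Windows end at 50 bp, so even spacing would put about as many occurrences within 25 bp as beyond it, and no test was made. Per 100 sites, the 50 bp before the summit held 21.6 occurrences and the 50 bp after it 21.9, against 5.58 in the bin farthest upstream and 2.97 in the bin farthest downstream.

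The base before the E-box was uneven as well. 0 of the 57 copies of CAGATG at intronic sites followed a T, which allows a share of up to 5.26%, against 25.2% of 258 copies at weaker candidates (Fisher's exact test, adjusted p = 2.99e-06). A C came before 54.4% of the copies at intronic sites, as in the bre-3 window above, against 27.1% at weaker candidates (odds ratio 3.20, exact adjusted p = 0.000267). For CACATG, T came before 15.4% of 39 copies at intronic sites and 25% of 236 at weaker candidates (exact adjusted p = 0.226), and C before 35.9% at intronic sites and 22.9% at weaker candidates (exact adjusted p = 0.143). These 4 comparisons were added after the data had been seen. They counted copies, of which some windows held several, and were not adjusted for GC content. CATATG was not tested. Read on both strands, it followed a T in 3.13% of cases at intronic sites and 27.2% at weaker candidates. It followed a C in 37.5% of cases at intronic sites and 18.7% at weaker candidates.

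**Figure D2:**
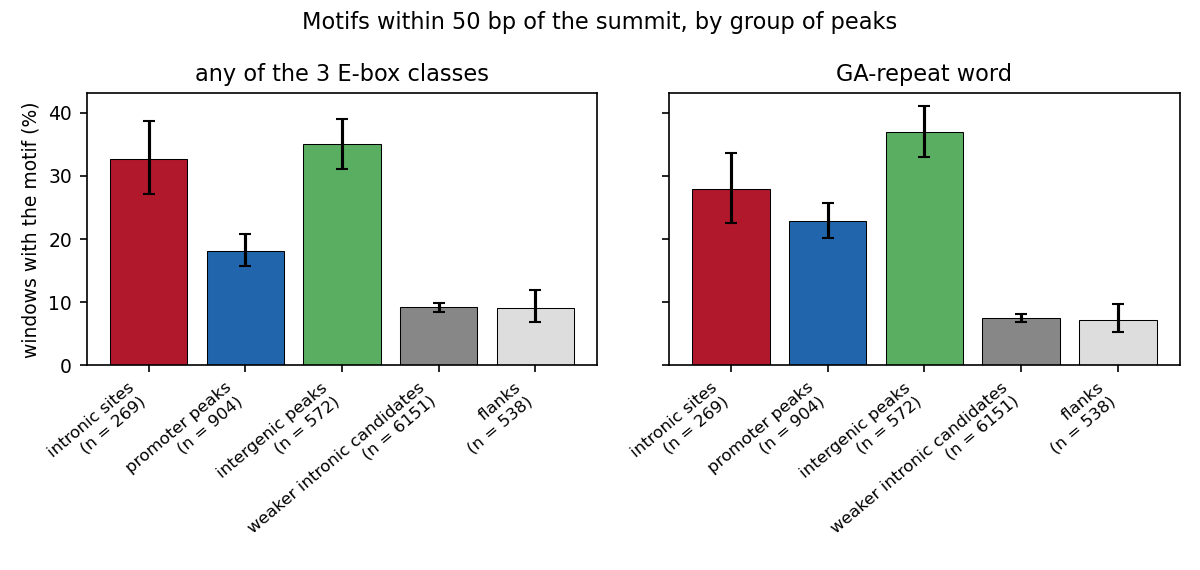
Share of windows within 50 bp of the summit that hold any of the 3 core E-boxes (left) or the GA-repeat word (right), in percent, for intronic sites, promoter peaks, intergenic peaks, weaker intronic candidates and flanks; error bars are exact 95% binomial intervals over windows. Intronic sites stand at 32.7% for E-boxes, beside intergenic peaks at 34.97% and above promoter peaks at 18.1%.

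**Figure D3:**
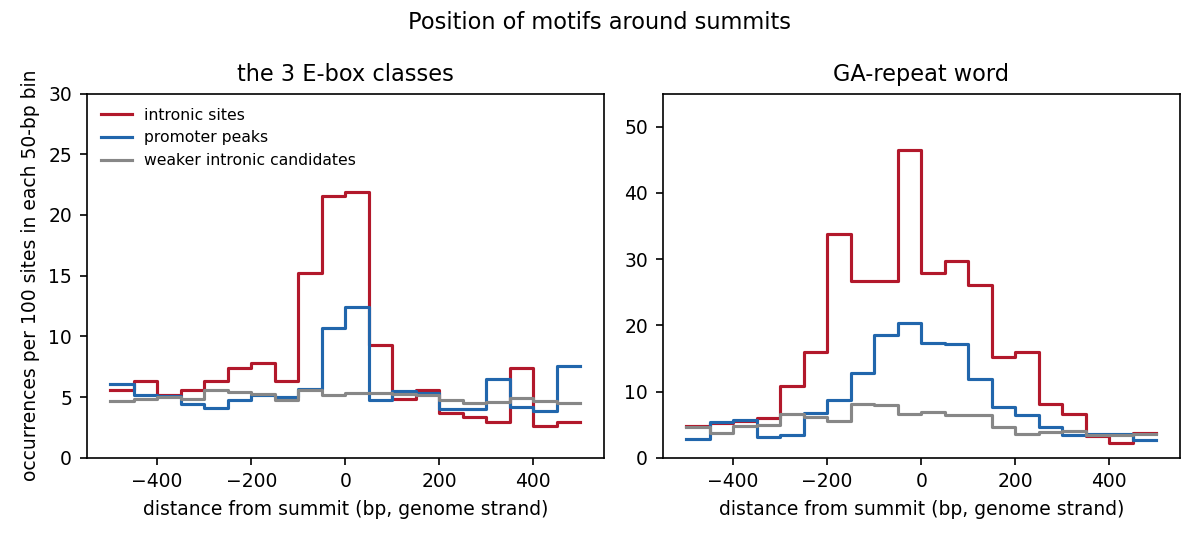
Occurrences per 100 sites in bins of 50 bp, against the distance from the summit in bp on the genome strand, for the 3 core E-boxes (left) and the GA-repeat word (right). At intronic sites the E-boxes peak in the bins beside the summit (21.6 and 21.9), while the GA-repeat word is spread over about 200 bp to either side.

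A GA-repeat word, GAGAGA, was at 75 intronic summits (27.9%, exact 95% interval 22.6 to 33.7%) and 7.25% of the flanks. In an exact McNemar test of this word alone p was 1.35e-08, and adjusted over all 2080 words of its length it was 2.34e-06. The word was chosen with earlier results of these data known. The other p-values in this paragraph are not adjusted for that choice. GAGAGA was at 7.51% of weaker intronic candidates (odds ratio 4.76, Fisher's exact test, p = 3.29e-22), and within strata set by quantiles of GC content the odds ratio was 2.77. Promoter peaks had it at 22.9% (odds ratio of intronic sites to them 1.30, exact p = 0.104). Intergenic peaks had it at 36.9% (odds ratio 0.66, exact p = 0.0101), a difference that did not pass without chromosome I (0.75) or within the optimal list (0.69). A core E-box and GAGAGA stood together at 19 sites, and 125 sites had neither. The daf-14 window held 14 overlapping copies.

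Over all 2080 words of 6 bases, counted with their reverse complements, 58 (2.79%) were more frequent at intronic summits than in both flanks and 59 (2.84%) less frequent, at an adjusted p under 0.05 in exact McNemar tests. The leading words were ACACAC, at 21.9% of summits and 3.90% of flanks (exact adjusted p = 3.51e-07), AGAGAG, at 26.4% of summits and 6.88% of flanks, CGCAGA, at 16.4% of summits and 2.05% of flanks, GAGAGA with the values above, and ACGCAG, at 14.9% of summits and 1.49% of flanks. Promoter peaks held ACACAC at 11.2%, AGAGAG at 19.4%, CGCAGA at 13.4% and ACGCAG at 13.9%, and these differences were not tested. The words that were rarer at summits were rich in A and T, such as AAAAAT, at 17.1% of summits and 50.7% of flanks. CAGATG was among the words that passed. Without replicate 1 the higher words were 38, within the optimal list 4.

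Base composition moved with these results, and no comparison of words with flanks was adjusted for it. GC content was 47.2 ± 7.58% at intronic summits and 35.7 ± 6.39% in the flanks (SD over windows, 269 sites), a difference of 11.5 percentage points (two-sided sign-flip permutation test, p = 1e-05, the smallest that 100000 resamples can give). It was 46.95 ± 8.76% at promoter peaks, 47.4 ± 7.70% at intergenic peaks and 36.4 ± 10.9% at weaker intronic candidates. Repeat masking covered a median of 3.96% of the window at intronic sites and 38.6% at weaker candidates. Windows without any masked base were 46.8% of the intronic sites and 17.3% of the weaker candidates.

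Intronic sites lay in longer introns than weaker candidates. The intron had a median length of 3402 bp at the sites and 997 bp at weaker candidates, with a mean log2 length higher by 1.40 (two-sided permutation test, p = 1e-05, the smallest possible). Introns under 500 bp held 18 sites (6.69%) and 27.5% of the weaker candidates. Introns of 1 kb or more held 81.8% of the sites and 49.9% of the weaker candidates. The longest, of 20948 bp, was in lin-1, and the shortest, of 73 bp, in pcyt-2.2. The median distance to the nearest splice site was 893 bp at the sites and 223 bp at weaker candidates.

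First introns held 122 sites (45.4%) and 32.6% of the weaker candidates (odds ratio 1.72, 95% interval 1.33 to 2.21, Fisher's exact test, p = 2.08e-05). That comparison was not adjusted for intron length, so it is not separate from the difference in length. Distance to the nearest protein-coding 5′ end had a median of 1675 bp at the sites and 1490 bp at the weaker candidates, and 107 sites (39.8%) lay over 2 kb from one. A noncoding RNA gene of another kind than tRNA or snoRNA, annotated as ncRNA, was within 200 bp of 27 sites (10.0%) and of 4.36% of the weaker candidates. Whether those genes bear on the signal was not tested.

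**Figure D4:**
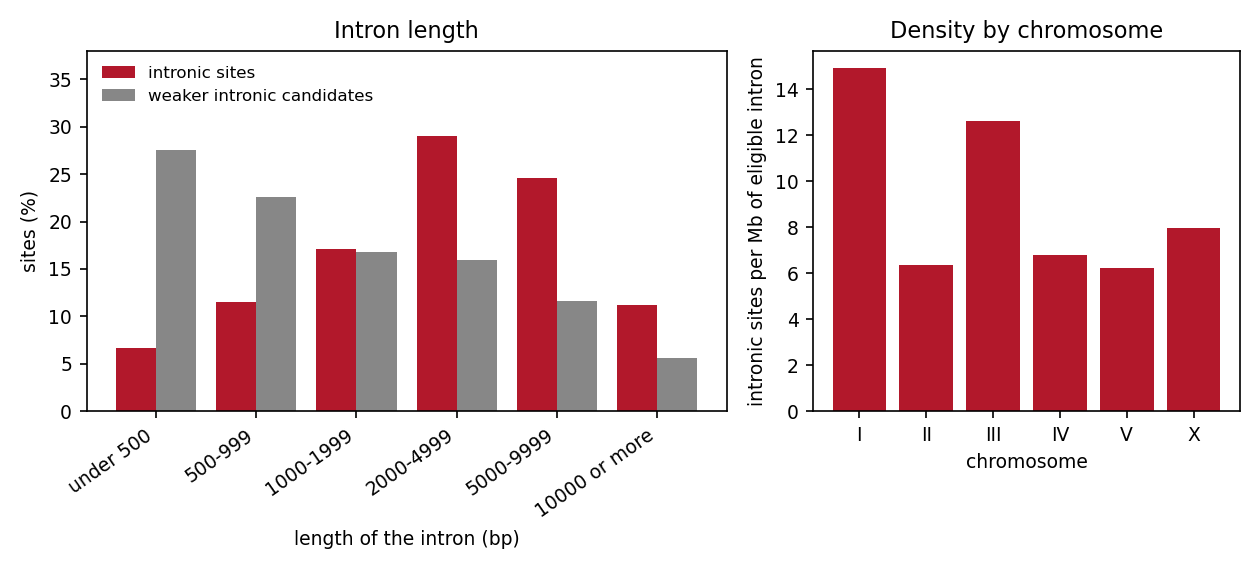
Left, share of sites (percent) by length of the intron in bp, for intronic sites (red) and weaker intronic candidates (grey); introns under 500 bp hold 6.69% of the intronic sites and 27.5% of the weaker candidates. Right, intronic sites per Mb of eligible intron on each nuclear chromosome, highest on I at 14.9 and III at 12.6.

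Sites were spread unevenly over chromosomes. Chromosome I held 80 sites, 29.7% of the sites and 20.03% of the weaker candidates (odds ratio 1.69, Fisher's exact test, adjusted p = 0.00119 over 6 chromosomes). Chromosome II held 26, 9.67% of the sites and 16.1% of the weaker candidates (odds ratio 0.56, exact adjusted p = 0.0108). The X chromosome held 38, 14.1% of the sites and 16.5% of the weaker candidates (odds ratio 0.84, 95% interval 0.57 to 1.19, exact adjusted p = 0.354). Without replicate 1 the difference on I did not pass (odds ratio 1.47, exact adjusted p = 0.0565), and the one on II did not, whichever replicate was left out. With a signal of 30 or more neither passed (odds ratio 1.22 on I, exact adjusted p = 0.392, and 0.95 on II, exact adjusted p = 0.814), and with 1 site per host gene the one on II did not (0.58, exact adjusted p = 0.057). In eligible intron the density was 9.29 sites per Mb, from 6.22 on V to 14.9 on I.

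The 269 sites had 212 host genes, 1.15% of the 18402 protein-coding genes with eligible intron, and formed 257 regions of overlapping peaks. Of the hosts, 166 had 1 site and 46 had at least 2, and 4 sites lay in introns of 2 genes. The gene with the most sites was lsy-22, which acts in the left-right asymmetry of taste neurons, with 7 summits in 5 regions of its first intron. Their pooled signals were 80.2, 59.0, 55.1, 52.7, 52.6, 48.6 and 46.5, and 3 of the windows held a core E-box. In zfp-1 there were 5 summits in 4 regions, with pooled signals of 107.6, 86.8, 83.3, 46.4 and 43.1 and no such E-box.

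The genes W05H12.1, Y111B2A.12, hmr-1, lit-1, mbk-2, ppfr-1 and pqn-41 had 3 sites each. In ppfr-1, for a regulatory subunit of protein phosphatase 4, the strongest site had 14.2 in replicate 1 and 50.3 in replicate 2. In pqn-41, for a polyglutamine-repeat protein, the strongest sites had pooled signals of 101.4 and 98.4, both with the higher value in replicate 2. In mbk-2, for a DYRK-type kinase, the 3 signals in replicate 1 were 26.7, 29.7 and 19.5, and in replicate 2 they were 31.2, 26.6 and 20.5 in the same order of sites. None of the sites in lit-1, mbk-2, ppfr-1, pqn-41 and W05H12.1 had a core E-box.

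**Figure D5:**
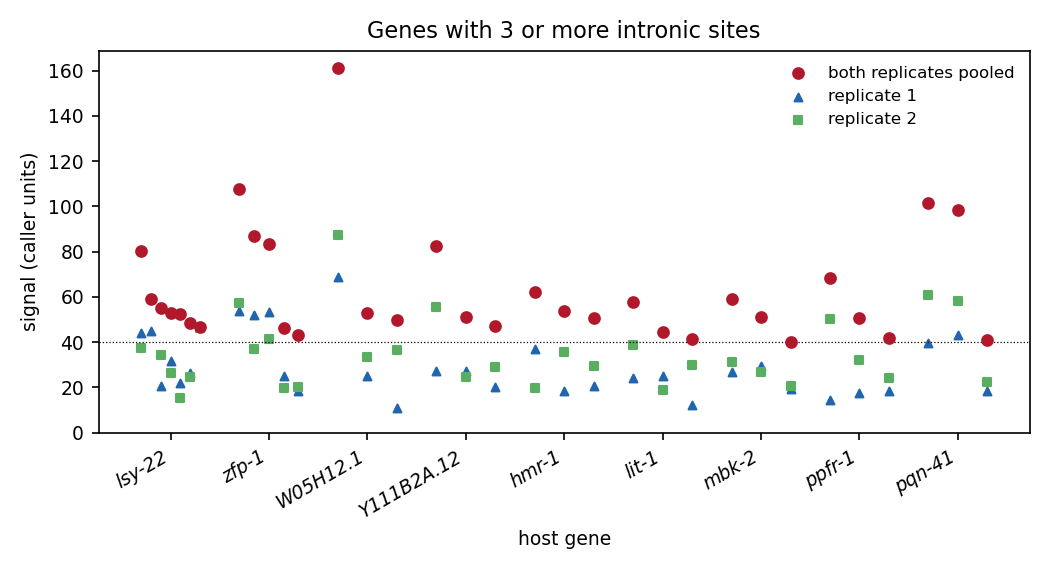
Signal in the caller's units (y axis) of every intronic site in the 9 host genes with 3 or more, in order of pooled signal within a gene, pooled (red circles), in replicate 1 (blue triangles) and in replicate 2 (green squares). The dotted line marks the threshold of 40; the highest point is the site in W05H12.1 at 161.3.

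Gene lists describe which processes the host genes belong to, and their counts stand beside the 1.15% of all genes. Of 5 known HLH-8 targets, hlh-8 alone hosted a site, and arg-1, egl-15, ceh-24 and mls-1 did not. None of the 14 regulators of the M lineage, the mesoblast descendants in which HLH-8 is known to act, hosted one. The targets had 6.90 kb of eligible intron and the regulators 68.9 kb. With 9.29 sites per Mb over all eligible intron, few sites could be expected in either list. Peaks at promoters and between genes are outside this count. Body wall muscle had 2 hosts of 40 genes, lev-11, for tropomyosin, at a pooled 82.9 and ttn-1, for a titin-like protein, at 42.5. The lists of 11 pharyngeal, 19 intestinal and 29 ion channel genes had 0. The epidermal list had 3 of 28, vab-10, a spectraplakin gene (64.7), nhr-23, a nuclear receptor of moulting (50.1), and ajm-1, for an apical junction protein (42.4). Of 32 neuronal genes, unc-104, for a kinesin, had a site at 55.8.

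Axon guidance and cell adhesion had the most hosts of the lists of this kind, 7 of 32 genes (21.9%), with 11 sites in 320.8 kb of eligible intron, or 34.3 per Mb. Over all eligible intron there were 9.29 sites per Mb. The epidermal list, at 39.1 per Mb, and the Wnt list, at 56.7 per Mb, were denser. Its cadherin gene hmr-1 had 3 sites at pooled signals of 62.1, 54.01 and 50.8. The first had 36.8 in replicate 1 and 19.96 in replicate 2 and a CAGATG, and the last had 20.4 in replicate 1 and 29.4 in replicate 2 and 2 copies of CATATG. The Trio-type exchange factor gene unc-73 had sites at 58.7 and 56.6, the second of which also lies in an intron of F55C7.2. The lamellipodin-family gene mig-10 had sites at 58.2 and 40.9, of which the weaker had no candidate in replicate 1.

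The other hosts of that list were sax-7, for an L1-type adhesion molecule (52.3), vab-2, for an ephrin (49.2), unc-40, for the netrin receptor of the DCC family (46.7), and rig-4, related to sidekick (41.6). The unc-40 site had 32.8 in replicate 1 and 13.3 in replicate 2. The vab-2 site had 17.6 in replicate 1 and 33.8 in replicate 2. Of the 11 sites of the list, 7 held a core E-box, as did 32.7% of all 269 sites. The lists differ in the length of their introns, and no test was made of them.

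Wnt signalling had 3 hosts of 28 genes with 5 sites, or 56.7 per Mb. The Frizzled gene lin-17 was at a pooled 74.5 and the Frizzled gene mig-1 at 50.6, with 17.2 in replicate 1 and 35.3 in replicate 2. The Nemo-like kinase gene lit-1 had sites at 57.7, 44.3 and 41.2. The FGF and Ras list had 3 hosts of 17, the ERK kinase gene mpk-1 (71.0, with 44.2 in replicate 1 and 34.4 in replicate 2), the ETS factor gene lin-1 (45.3) and the Ras exchange factor gene sos-1 (40.4). Among these 3 the lin-1 window alone held core E-boxes, CATATG and CACATG, as shown above.

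Notch signalling had 1 host of 16, the coactivator gene sel-8 (41.2), and TGF-beta signalling 1 of 15, the Smad gene daf-14 (41.5). Basement membrane had 2 of 23, ost-1, for SPARC, at 93.8 with 37.6 in replicate 1 and 53.2 in replicate 2, and mig-6, for papilin, at 40.9. The 6 Hox genes and the 63 ceh homeobox genes hosted 0. Of 25 hlh genes the hosts were hlh-8 and hlh-11 (42.6, with a CAGATG), and of 269 nhr genes nhr-23, nhr-46 (46.6), nhr-19 (45.2) and nhr-60 (41.2), or 1.49%, near the 1.15% of all genes.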

How the data were processed

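Peaks came from the deposited ce11 lists of candidates of each replicate, of both pooled, and the optimal list left by the authors' irreproducible discovery rate step, per the deposited file inventories. The signal values and the −log10 q values were deposited by the authors and used as they stand; these q values have a ceiling, so signal ranked the peaks. No source used here names the aligner, the peak caller, the depth scaling or the read depth, so no counting interval belongs to a signal. The lists held 24268 peaks in replicate 1, 23945 in replicate 2, 25904 pooled and 1120 optimal. Replicate candidates were matched to sites within 200 bp. Introns came from Ensembl release 115 of the same assembly, the shortest intron holding a summit counting, with its lowest number over transcripts. Sequence came from RefSeq, and words were sought on both strands.

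Sites, gene lists, E-box classes and tests were chosen with earlier results of these data known. Named genes follow a rule: hosts of the 20 strongest sites, the 10 strongest windows with 2 or more E-boxes, the 5 genes with most sites, hosts in the target and M lineage lists, up to 3 hosts of other lists, and the 5 values to either side of the threshold. Hosts outside it were chosen after their values were seen. Exact McNemar, Fisher and permutation tests ran in Python 3.11.15 with scipy 1.17.1, numpy 2.4.6 and pandas 2.3.3, plots in matplotlib 3.10.9. They were tested on simulated data. Alternatives were stricter and looser signal, each replicate alone, other windows, flanks and promoters, and GC strata. The comparison with intergenic peaks, the words of 6 bases, the bases beside E-boxes and the repeats were added after the data had been seen. The ce10 lists were not used here. The sequence of 1 site is not reported here.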

Additional observations from a re-analysis of the deposited data

How the results depend on the processing

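Of 268 values recomputed for 22 tested results under 15 other settings, 236 kept their direction and their side of the threshold. The count of 58 more frequent words of 6 bases was 4 within the optimal list, 141 with a signal of 30 or more, 33 with 1 site per host gene, 38 with a promoter window of 1000 bp, 137 in windows of 100 bp to either side, 29 without chromosome I and 21 with both flanks in intron; in 5 further settings it was within 1.5 times 58. Against promoter peaks, CACATG passed within the optimal list (odds ratio 2.41), with 1 site per host gene (1.91) and in windows of 100 bp (1.95). CATATG passed there with a signal of 30 or more (2.85), 1 site per host gene (2.82), windows of 100 bp (2.44) and 1 site per region (2.68). Against weaker candidates, CATATG did not pass within the optimal list (3.08). Against flanks, CACATG did not pass with both flanks in intron (ratio 3.50). The odds ratio of the X share turned to 1.14 within the optimal list, 1.14 with a signal of 30 or more and 1.06 without replicate 2, and that of CAGATG against intergenic peaks to 1.01 with 1 site per host gene. The cause was not tested.

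With each replicate left out in turn, the ratio to flanks was 4.42 to 6.53 for CAGATG, 2.77 to 2.95 for CACATG, 1.87 to 2.55 for CATATG and 3.58 to 3.90 for GAGAGA. The odds ratio to promoter peaks was 1.81 to 2.18 for CAGATG, 1.73 to 1.93 for CACATG and 2.22 to 2.46 for CATATG. To weaker candidates it was 4.14 to 5.08 for CAGATG, 3.24 to 3.62 for CACATG and 2.71 to 3.05 for CATATG, and to intergenic peaks 0.75 to 0.89 for CAGATG. The GC difference was 10.2 to 10.8 points, the odds ratio of first introns 1.62 to 1.76, the log2 length difference 1.27 to 1.40, the odds ratio of the X share 0.95 to 1.06, and the word count 38 to 42.

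No paired analysis was possible because the design has 1 group. Read depth is unknown, and the tests run over sites of 2 pooled replicates. They describe these libraries. The tests treat sites that share a region or gene as independent, which can make their p-values too small.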
